A study of Mus musculus with 4 samples.

Results

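The SWI/SNF, CHD and ARID chromatin remodellers were taken as every gene whose symbol on the array's annotation starts with Smarca to Smarce, is Chd followed by a number, or starts with Arid and a number, where the probe set names that gene alone. The rule found 32 of the 19938 genes on the array that have such a probe set: 13 SMARC genes, 9 CHD genes and 10 ARID genes, carried by 64 of 35556 probe sets. A further 6 probe sets that share a member's name with other genes were not used. The naming rule uses no measured value, though members and the partner and marker lists below were chosen with earlier results of these data known.

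RNA came from cells labelled Flt3(-) LSK, a stem-cell-rich bone marrow fraction that is defined by the lack of mature lineage markers and of the receptor Flt3 and by Sca-1 and c-Kit on the surface. The 2 samples labelled GABPalpha-deficient came from Mx1Cre-GABPa(FL/-) mice, which carry 1 floxed and 1 null Gabpa allele. The 2 control samples came from Mx1Cre-GABPa(FL/+) mice, with 1 floxed and 1 wild-type allele. All mice, controls included, carried the Cre gene and received pIpC, were 6 to 8 weeks old and came from a C57/BL6 backcross of 4 generations. Cells were sorted 4 days after the last pIpC dose, and each sample was hybridized to 1 Affymetrix Mouse Gene 1.0 ST array. Mx1-Cre is driven by an interferon-inducible promoter that acts in blood cells and in other tissues, so deletion is not limited to stem cells. A control with a recombined floxed allele keeps a single working copy and is not wild type. Whether 1 mouse or a pool gave each sample is not stated, so the p-values speak of the variation among these 4 samples, which may be technical.

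Chromatin remodellers are ATP-driven motors that slide, eject or exchange nucleosomes and so set which stretches of DNA other proteins can reach. SWI/SNF complexes pair 1 of 2 alternative ATPases with a shared core and with ARID subunits that define the canonical BAF and the PBAF forms. CHD proteins combine a chromodomain with a related motor, and CHD3 to CHD5 power the NuRD complex, which also removes acetyl groups from histones. The ARID domain is a DNA-binding fold found in SWI/SNF subunits and in transcription factors and corepressors outside that complex. Blood stem cells depend on several of these factors in mice, among them the NuRD ATPase CHD4.

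Values are RMA expression values on the log2 scale, where 1 unit is a 2-fold step in signal. For Gabpa, the targeted gene, the array gave 6.43 and 7.85 in the samples labelled deficient, against 8.43 and 7.28 in the controls. These groups overlapped, so Gabpa does not separate the arrays, and the deleted part may lie outside its probes, so the groups go by their labels here. Of 11 measured LSK and stem cell markers, all 11 were lower without overlap on the arrays labelled deficient, as were 15.2% of all genes. The list means were 6.82 and 7.01 there, against 8.72 and 8.59 on the control arrays. The list includes Flt3, the receptor the gate selects against, which read 5.68 and 5.95 on the arrays labelled deficient, against 8.43 and 9.26 on the control arrays, among the larger differences of the list at −3.03. Kit, which encodes the c-Kit receptor of the sorting gate, read 7.70 and 8.50, against 10.21 and 10.21. Cd34, a sialomucin of progenitors, read 8.00 and 7.53, against 11.30 and 11.31. All 11 measured erythroid markers had positive differences, as did 13489 of 19938 genes, and the groups overlapped for 3 of the 11. The erythroid list averaged 8.10 and 9.08, against 6.69 and 6.65. Klf1, an erythroid transcription factor, read 9.68 and 9.65, against 7.90 and 7.90, and Ank1, the red cell ankyrin, 8.24 and 8.37, against 6.14 and 6.22. Of 12 macrophage markers, 9 did not overlap and were higher, with list means of 7.69 and 6.93, against 6.10 and 6.25, and 42.9% of all genes were likewise higher without overlap. Among them Adgre1, the F4/80 antigen, read 6.79 and 5.96, against 5.70 and 5.56. The 12 stromal and endothelial markers averaged 7.22 and 6.93, against 6.25 and 6.28, with 9 positive and 3 negative differences. Sparc, a matrix glycoprotein with the largest difference of the list at 3.80, read 10.38 and 9.98, against 6.19 and 6.56. The 3 negative ones were Pdgfrb at −0.50, which was lower without overlap, and Pecam1 at −0.50 and Emcn at −0.17, which overlapped. The median difference, samples labelled deficient minus controls, was −1.67 for the 11 stem cell markers, 1.95 for the erythroid, 1.01 for the macrophage and 0.54 for the stromal and endothelial list. It was 0.26 for 12 granulocyte, 0.37 for 9 B and plasma cell and 0.38 for 9 T and NK cell markers. Array values have no true 0, so no marker could be called absent. The part of a different cell mix in the remodeller values was not tested, and in bulk RNA fewer cells of a type and less RNA per cell cannot be told apart.

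All differences are given on the log2 scale as arrays labelled deficient minus controls. No member passed limma's threshold, an adjusted p under 0.05 over all probe sets, where 0 of 35556 probe sets (0%) passed. The lowest adjusted p of a member was 0.328. By the unadjusted p, taken under 0.05, 10 of 32 members (31.3%) were lower on the arrays labelled deficient, against 6.36% of all genes and 5.25% of all probe sets. By the same measure 1 member (3.13%) was higher, against 6.99% of all genes and 6.64% of all probe sets. The 10 were Smarca2, Smarca4, Smarcc1, Arid1b, Arid2, Chd1, Chd2, Chd4, Chd6 and Arid4a, and the 1 was Chd5. Without control replicate 1 only Smarca2 of the 10 kept such a p, while all 10 differences stayed negative, between −1.30 for Smarcc1 and −0.56 for Smarca4. In that fit 1590 of all probe sets were lower and 714 higher at that p, against 1865 and 2360 with all arrays. Without deficient replicate 1 the count was 6. Chd5 had an unadjusted p under 0.05 in none of the 4 fits that leave out an array, with differences from 0.42 to 0.69, and the 1 higher member without deficient replicate 2 was Smarcd1. The 2 arrays of each group did not overlap for 14 members on the lower side (43.8%, against 15.2% of all genes) and for 5 on the higher side (15.6%, against 42.9%).

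Across the 32 members the median difference was −0.27, against 0.16 for all genes, so that relative to all genes it stood at −0.44. With 1 array left out, the members' median was −0.39 without deficient replicate 1, −0.48 without deficient replicate 2, −0.23 without control replicate 1 and −0.42 without control replicate 2. The differences ran from −1.64 for Chd2 to 0.59 for Smarcd1. In all, 24 members (75%) lay below 0, against 32.3% of all genes, and 9 (28.1%) lay at −1 or below, against 5.69%. No member lay at 1 or above, where 1.72% of all genes did. Cyclic loess moved the median of all genes to −0.00073 and that of the members to −0.39, and turned the split of all probe sets at unadjusted p from 1865 lower and 2360 higher to 2349 and 1191. Subtracting array medians gave 2185 and 1537.

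**Figure D1:**
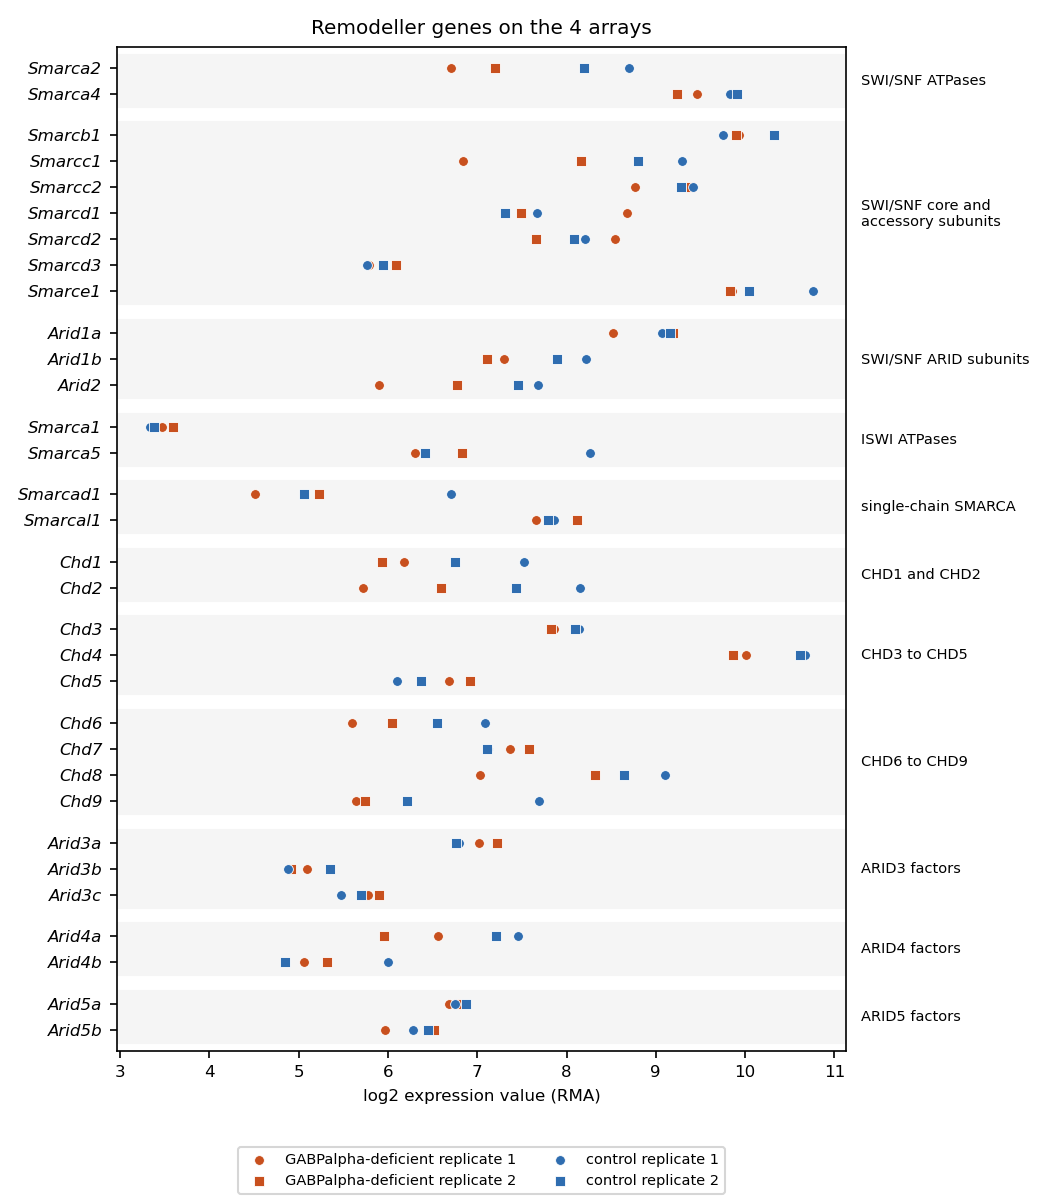
Log2 expression value (x axis) of the 32 remodeller genes (rows, grouped by complex) on the 2 arrays labelled GABPalpha-deficient (orange) and the 2 control arrays (blue), with circles for replicate 1 and squares for replicate 2. For 14 genes both orange points lie left of both blue points, for 5 both lie right, and rows are to be read each for itself, since probe sets differ in brightness.

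GABP belongs to the ETS family, which binds a GGAA core, and its preferred sites carry CCGGAAG. That motif was searched on both strands (CTTCCGG on the opposite one) in RefSeq promoter windows of the mouse build GRCm38.p6, each with 250 bases before and 50 after the start of a gene. Windows were held for 24 of the 32 members. Arid2, Arid3a, Arid4a, Chd1, Chd2, Chd3, Chd7 and Smarce1 had none in that table. The motif stood in the window of 4 of 24 members (16.7%), Smarca2, Smarcc1, Chd8 and Arid3b, and in 9.93% of 27025 genes with a window. These 4 had differences from −1.55 to −0.11, with a median of −1.35, and the other 20 from −1.26 to 0.59, with a median of −0.18. The shorter CGGAAG, which lies within the longer motif, stood in 8 of 24 (33.3%), against 18.8% of genes, and added Smarca1, Smarca4, Smarca5 and Arid3c. Those 8, which include the 4 with the longer motif, ran from −1.55 to 0.25 with a median of −0.65, and 6 lay below 0. The other 16 had a median of −0.18, and 12 lay below 0. A match is a stretch of letters and no record of binding.

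The windows of Smarca2, Smarcc1 and Chd8 are shown because they hold CCGGAAG and belong to members with large negative differences. That of Arid3b, the other member with this motif, holds 2 copies but is not shown, and its difference was −0.11. The window of Chd9 is shown because that gene has the most negative difference among members whose windows hold neither motif. All windows shown were chosen after the members' values were seen. Each is given 5′ to 3′ on the gene's strand, with 250 bases before the start site and the first 20 after it, and capitals mark CCGGAAG or its reverse complement. Smarca2 lies on the + strand at chr19:26604910-26605179, with the motif on the opposite strand starting 106 bases before the start site. Smarcc1 lies on the + strand at chr9:110131774-110132043, with 2 copies on the gene's strand, 226 and 40 bases before it. Chd8 lies on the − strand at chr14:52257741-52258010, with 1 copy that starts at transcribed base 9. Chd9 lies on the + strand at chr8:90828585-90828854, which is 1 of its 2 windows.
Smarca2: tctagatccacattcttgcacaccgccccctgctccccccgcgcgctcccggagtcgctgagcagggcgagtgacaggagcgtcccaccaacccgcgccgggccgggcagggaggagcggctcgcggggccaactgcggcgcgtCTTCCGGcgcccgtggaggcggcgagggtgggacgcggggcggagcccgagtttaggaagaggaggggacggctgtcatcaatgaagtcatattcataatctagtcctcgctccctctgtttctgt
Smarcc1: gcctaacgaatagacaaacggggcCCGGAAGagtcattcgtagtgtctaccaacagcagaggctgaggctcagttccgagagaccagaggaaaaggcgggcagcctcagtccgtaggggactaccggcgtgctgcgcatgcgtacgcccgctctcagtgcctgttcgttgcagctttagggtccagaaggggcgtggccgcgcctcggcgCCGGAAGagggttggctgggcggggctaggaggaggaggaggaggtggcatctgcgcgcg
Chd8: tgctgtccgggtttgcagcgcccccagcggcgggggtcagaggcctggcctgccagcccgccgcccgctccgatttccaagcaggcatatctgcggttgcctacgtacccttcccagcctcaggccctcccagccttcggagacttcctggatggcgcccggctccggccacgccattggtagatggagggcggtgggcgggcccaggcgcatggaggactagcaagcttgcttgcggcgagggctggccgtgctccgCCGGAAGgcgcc
Chd9: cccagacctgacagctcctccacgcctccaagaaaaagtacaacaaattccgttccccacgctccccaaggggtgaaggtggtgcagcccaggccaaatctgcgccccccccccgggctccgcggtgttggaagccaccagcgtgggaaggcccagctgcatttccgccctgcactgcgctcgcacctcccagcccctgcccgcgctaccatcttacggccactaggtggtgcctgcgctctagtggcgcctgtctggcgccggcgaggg

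The SWI/SNF genes among the members numbered 12. Of these, 10 had a negative difference, 5 were lower at an unadjusted p under 0.05 and none was higher, with a median of −0.40. Over all genes, 32.3% had a negative difference, and 6.36% were lower and 6.99% higher at that p. Both ATPase genes were lower without overlap. Smarca2, which encodes the ATPase BRM, read 6.70 and 7.20 on the arrays labelled deficient and 8.70 and 8.20 on the control arrays. Every array labelled deficient lay at least 1 log2 unit below every control array. The difference was −1.5 (SE 0.29, adjusted p = 0.328), and it lay between −1.75 and −1.25 as arrays were left out. Smarca2 was the only member with an unadjusted p under 0.05 in all 11 fits run, the one reported and 10 alternatives. Smarca4, which encodes the alternative ATPase BRG1, read 9.46 and 9.24, against 9.84 and 9.91. Its arrays lay close together within each group, and the difference of −0.52 (SE 0.16, adjusted p = 0.408) was smaller in size than that of Smarca2. Whether these 2 differences differ was not tested.

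The scaffold genes were unlike each other. Smarcc1, which encodes the core scaffold BAF155, read 6.84 and 8.17 on the arrays labelled deficient, against 9.29 and 8.80 on the control arrays. Replicate 1 labelled deficient was the low one, and the difference of −1.55 (SE 0.53, adjusted p = 0.416) became −0.88 without it and −2.21 without deficient replicate 2. Smarcc2, the paralog BAF170, read 8.76 and 9.39, against 9.42 and 9.28. Its groups overlapped, again with replicate 1 labelled deficient as the low array, and its difference was −0.27, or 0.041 without that array. Smarcb1, which encodes the core subunit SNF5, a tumour suppressor, read 9.93 and 9.90, against 9.76 and 10.33, so both arrays labelled deficient lay between the controls. Its difference was −0.13 (SE 0.25) and 0.16 without control replicate 2.

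The 3 accessory subunits of the BAF60 family, encoded by Smarcd1, Smarcd2 and Smarcd3, overlapped between groups. Smarcd1 read 8.67 and 7.49 on the arrays labelled deficient, against 7.66 and 7.31 on the control arrays, so its difference of 0.59 came from replicate 1 labelled deficient and was 0.0014 without it. Smarcd2, a subunit needed for granulocyte development in mice, read 8.54 and 7.66, against 8.21 and 8.08, with a difference of −0.047. Smarcd3 differed by 0.082, and by −0.12 after cyclic loess. Smarce1, which encodes the HMG-box subunit BAF57, had 3 probe sets, and all 3 were lower without overlap, at −0.66, −0.62 and −0.56. The brightest of them read 9.85 and 9.83, against 10.76 and 10.04, with the 2 arrays labelled deficient almost equal. Its difference of −0.56 (SE 0.29) was −0.20 without control replicate 1, the high array. RefSeq lists a Smarce1 pseudogene, so these probe sets may share signal with a near-identical copy.

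Of the 3 ARID subunits, Arid1b and Arid2 were lower without overlap and Arid1a was not. Arid1b, a subunit of canonical BAF, read 7.30 and 7.10 on the arrays labelled deficient, against 8.22 and 7.89 on the control arrays. The difference was −0.86 (SE 0.19, adjusted p = 0.367) and ran from −1.02 to −0.69 with 1 array left out. Arid1a, its alternative in the same position, read 8.52 and 9.19, against 9.07 and 9.16. Only replicate 1 labelled deficient lay low, and the difference of −0.26 became 0.076 without it. Arid2, which marks the PBAF form, read 5.90 and 6.78, against 7.68 and 7.45. Both arrays labelled deficient lay under both controls, with a difference of −1.23 (SE 0.35, adjusted p = 0.407) that was −0.79 without deficient replicate 1.

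SWI/SNF subunits with other names, 18 in all, had a median difference of −0.078, against 0.16 for all genes. At an unadjusted p under 0.05, 1 was lower and 1 higher (5.56% each), near the 6.36% and 6.99% of all genes. Bicral, a subunit of the non-canonical GBAF form, read 5.69 and 6.07 on the arrays labelled deficient, against 6.84 and 7.64 on the control arrays, a difference of −1.36 (SE 0.35). Phf10, a PBAF subunit, had the opposite sign and read 10.05 and 10.32, against 9.63 and 9.08, a difference of 0.83 (SE 0.26). The groups overlapped for 10 of the 18, and for 8360 of all 19938 genes.

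**Figure D2:**
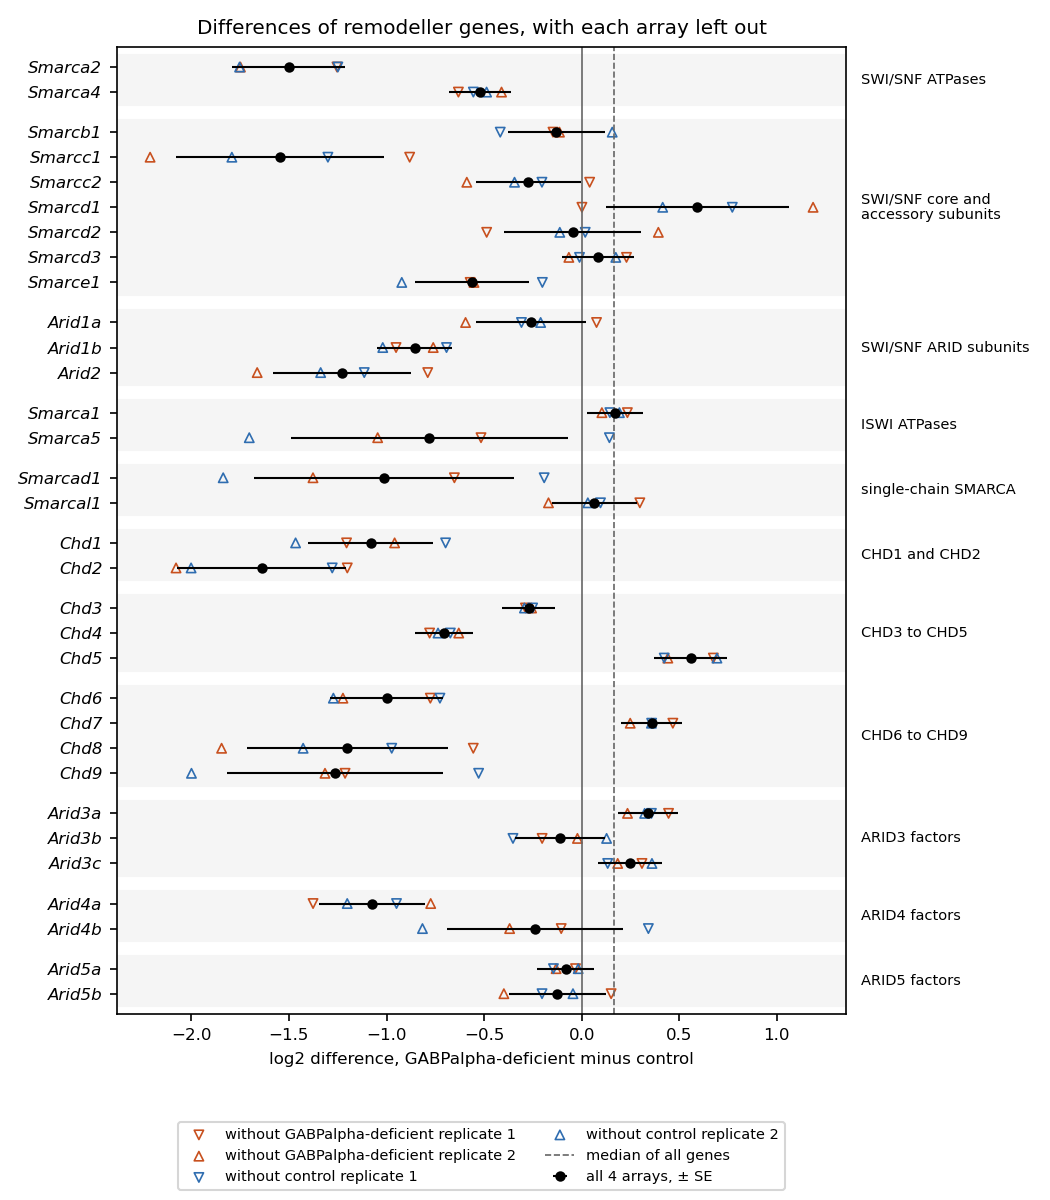
Log2 difference, arrays labelled GABPalpha-deficient minus control arrays (x axis), of the 32 remodeller genes with limma's standard error (black) and with each array left out in turn (open triangles). The dashed line is the median of all genes at 0.16, and Smarca5, Smarcad1 and Chd9 are the rows where leaving out control replicate 1 moves the point farthest to the right.

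The ISWI motors and the single-chain remodellers gave no member with an unadjusted p under 0.05 in the fit of all 4 arrays. Smarca5, which encodes SNF2H, the main ISWI ATPase of blood progenitors in mice, read 6.30 and 6.83 on the arrays labelled deficient, against 8.27 and 6.42 on the control arrays. Only control replicate 1 stood high, and the difference of −0.78 (SE 0.71) was 0.14 without that array and −1.70 without control replicate 2. Another 3 probe sets name Smarca5 together with its pseudogene Smarca5-ps and were not used. Smarcad1, a motor of heterochromatin upkeep and of DNA end resection, showed the same layout with 4.51 and 5.23, against 6.71 and 5.06. Its difference was −1.01 (SE 0.67), and it was −0.19 without control replicate 1 and −1.84 without control replicate 2. Smarca1, which encodes the other ISWI ATPase SNF2L, read 3.46 and 3.59, against 3.33 and 3.38, a difference of 0.17 (SE 0.14) near the low end of the array's values, which start at 1.98. Smarcal1, an annealing helicase of stalled replication forks, read 7.65 and 8.12, against 7.86 and 7.79, and its difference of 0.064 turned to −0.017 with array medians subtracted.

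The 9 partners of ISWI motors had a median of −0.60, against 0.16 for all genes, with 3 lower and 1 higher at an unadjusted p under 0.05, against 6.36% and 6.99% of all genes. Bptf, the large subunit of the NURF complex, read 7.51 and 7.90 on the arrays labelled deficient, against 9.16 and 8.95 on the control arrays, a difference of −1.35 (SE 0.21, adjusted p = 0.291). Baz2b, a bromodomain partner, read 6.22 and 6.16, against 7.08 and 6.96, a difference of −0.83 (SE 0.14). In the list of INO80, SRCAP and TIP60-p400 subunits, 20 of 21 were measured, with a median of −0.11. At an unadjusted p under 0.05, 3 of these were lower (15%) and 2 higher (10%), beside the same shares of all genes. Ino80d, an INO80 subunit, differed by −1.46 (SE 0.27), and Srcap, the motor that installs a variant of histone H2A, by −0.80 (SE 0.21).

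CHD genes had a median difference of −1.0 over 9 members, with 7 below 0 and no gene whose groups overlapped on its brightest probe set. That median was −0.70 with a gene's probe sets averaged, −0.67 without control replicate 1 and −1.27 without control replicate 2. An unadjusted p under 0.05 was reached by 4 lower genes and 1 higher gene, where 6.36% and 6.99% of all genes reached it. Without overlap, 7 were lower and 2 higher, against 15.2% and 42.9% of all genes. Chd1, which encodes a motor that reads methylated histones at active promoters, read 6.18 and 5.93 on the arrays labelled deficient, against 7.52 and 6.75 on the control arrays. Its difference was −1.08 (SE 0.32, adjusted p = 0.408), and −0.70 without control replicate 1. Chd2, its closest relative, read 5.71 and 6.59, against 8.16 and 7.43, with every array labelled deficient below every control. That difference, −1.64 (SE 0.43, adjusted p = 0.397), was the most negative of all 32 members, and it ran from −2.08 to −1.20 with 1 array left out.

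Among the NuRD motors, Chd4 and Chd3 were lower and Chd5 was higher. Chd4, which encodes Mi-2β, a motor that mouse blood stem cells need, read 10.02 and 9.87 on the arrays labelled deficient, against 10.68 and 10.61 on the control arrays. The arrays of each group lay close together, and the difference of −0.70 (SE 0.15, adjusted p = 0.349) kept between −0.78 and −0.63 with any array left out. It had an unadjusted p under 0.05 in 10 of the 11 fits. Chd3, the paralog Mi-2α, read 7.86 and 7.83, against 8.14 and 8.10, a small but non-overlapping difference of −0.27 (SE 0.14, adjusted p = 0.449). Chd5, known mainly from brain and testis, read 6.68 and 6.91, against 6.10 and 6.37. Its difference of 0.56 (SE 0.19, adjusted p = 0.413) stayed positive in all 11 fits, 4 of which gave an unadjusted p under 0.05.

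The NuRD genes that are not motors had a median difference over 12 genes of −0.0080, against 0.16 for all genes. In limma 0 were lower and 0 higher at an unadjusted p under 0.05, against 6.36% and 6.99% of all genes. The groups overlapped for 9 of the 12, and for 8360 of 19938 genes. Hdac2, which encodes a deacetylase of the complex beside HDAC1, had the lowest p and read 8.05 and 9.76 on the arrays labelled deficient, against 10.27 and 10.05 on the control arrays, a difference of −1.26 (SE 0.64) carried mostly by replicate 1 labelled deficient. Rbbp4, a histone-binding subunit, differed by −0.31 (SE 0.17).

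In the group of CHD6 to CHD9, Chd6, Chd8 and Chd9 were lower without overlap and Chd7 was higher. Chd6 had 2 probe sets. The brighter read 5.59 and 6.04 on the arrays labelled deficient, against 7.09 and 6.54 on the control arrays, a difference of −1.0 (SE 0.29, adjusted p = 0.407). The dimmer read 4.83 and 5.73, against 5.76 and 5.30, and overlapped, so the 2 disagreed in size. Chd8, which encodes a partner of β-catenin, read 7.03 and 8.32, against 9.10 and 8.64. Replicate 1 labelled deficient was far below the other 3, and the difference of −1.20 (SE 0.51) was −0.56 without it and −1.85 without deficient replicate 2. Chd9 read 5.64 and 5.74, against 7.69 and 6.22. Here control replicate 1 stood apart, and the difference of −1.26 (SE 0.55) was −0.53 without it and −2.0 without control replicate 2.

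Chd7, the gene of the human CHARGE syndrome, was spread over 30 probe sets, of which 27 had a positive difference and 3 a negative one, where 33.6% of all probe sets had a negative one. They ran from −0.21 to 0.89 with a median of 0.14, close to the 0.16 of all genes. None had an unadjusted p under 0.05, and 19 overlapped. Without overlap, 11 were higher, as were 38.9% of all probe sets, and 0 were lower, where 14.0% of all probe sets were. The brightest, which stands for the gene in the counts above, read 7.36 and 7.58 on the arrays labelled deficient, against 7.12 and 7.11 on the control arrays, a difference of 0.36 (SE 0.16, adjusted p = 0.434). The largest positive difference came from a probe set with 4.73 and 2.63, against 2.72 and 2.86, where 1 array alone stood high. Most of the Chd7 probe sets thus lay near the middle of all genes.

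**Figure D3:**
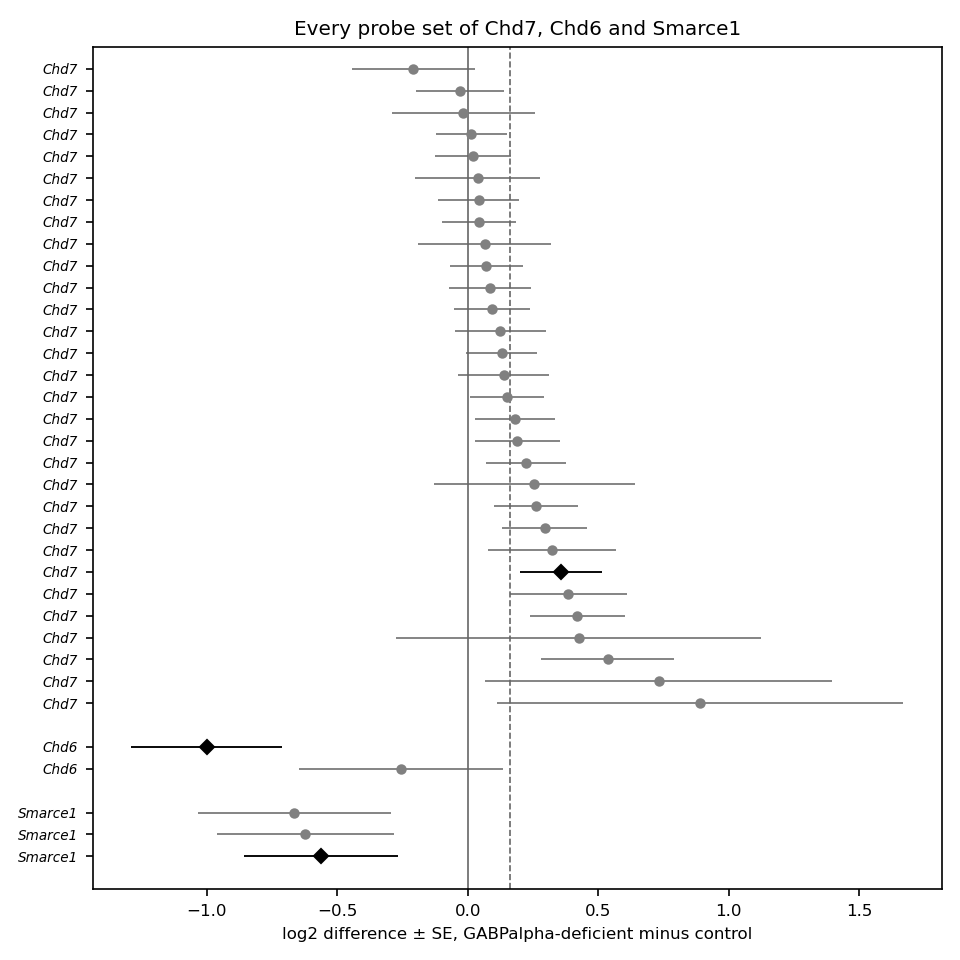
Log2 difference ± SE, arrays labelled GABPalpha-deficient minus control arrays (x axis), of all 30 probe sets of Chd7, the 2 of Chd6 and the 3 of Smarce1 (rows, sorted within a gene). Black diamonds mark the brightest probe set of each gene, and the dashed line the median of all genes at 0.16, around which the Chd7 probe sets lie while the other 5 lie left of 0.

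ARID factors outside SWI/SNF numbered 7, with a median of −0.11, against 0.16 for all genes. At an unadjusted p under 0.05, 1 was lower (14.3%) and 0 higher, against 6.36% and 6.99% of all genes. Arid4a, a corepressor that binds the retinoblastoma protein and SIN3, read 6.56 and 5.96 on the arrays labelled deficient, against 7.46 and 7.21 on the control arrays. The groups did not overlap, with a difference of −1.08 (SE 0.27, adjusted p = 0.392) that ran from −1.38 to −0.77 with 1 array left out. Arid4b, its paralog, read 5.06 and 5.32, against 6.01 and 4.85, so the controls enclosed both arrays labelled deficient. Its difference of −0.24 was 0.34 without control replicate 1. The 8 SIN3 partners had a median of −0.26. Beside the same shares of all genes, 1 of the 8 (12.5%) was lower and 0 higher at an unadjusted p under 0.05. That gene was Ing1, a histone-mark reader, at 6.95 and 7.46, against 8.47 and 8.74, a difference of −1.40 (SE 0.25), and Sin3a, the scaffold, differed by −1.0 (SE 0.42).

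The ARID3 factors had a positive median, 0.25, where the other classes of members had negative ones. After cyclic loess the ARID3 median was 0.032 and that of all genes −0.00073. Arid3a, a B lineage factor of immunoglobulin transcription also called Bright, read 7.01 and 7.23 on the arrays labelled deficient, against 6.80 and 6.76 on the control arrays. Its groups did not overlap and the difference was 0.34 (SE 0.16, adjusted p = 0.440). Arid3c was also higher without overlap, at 0.25 (SE 0.16), and 42.9% of all genes were likewise higher without overlap. Arid3b, whose promoter window holds 2 copies of CCGGAAG, overlapped at −0.11. For comparison, the median of all genes was 0.16. Arid5a, an RNA-binding member, and Arid5b, a cofactor linked to childhood lymphoid leukaemia in humans, overlapped at −0.081 and −0.12.

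The remaining SNF2-family ATPases, 12 genes outside the naming rule, all had differences below 0, with a median of −0.40, 3 lower and 0 higher at an unadjusted p under 0.05. Zranb3, a replication fork helicase, read 6.31 and 6.28 on the arrays labelled deficient, against 6.86 and 6.86 on the control arrays, a difference of −0.57 (SE 0.14). Rad54b, a recombination motor, differed by −0.82 (SE 0.23). Over all 79 partners measured of 80 listed, the median difference was −0.20, with 11 lower (13.9%) and 4 higher (5.06%) at an unadjusted p under 0.05, against 6.36% and 6.99% of all genes. Below 0 lay 49 partners (62.0%), against 32.3% of all genes. The partners' median ran from −0.094 without deficient replicate 2 and −0.12 without control replicate 1 to −0.36 without control replicate 2. The members' median of −0.27 was not tested against it.

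**Figure D4:**
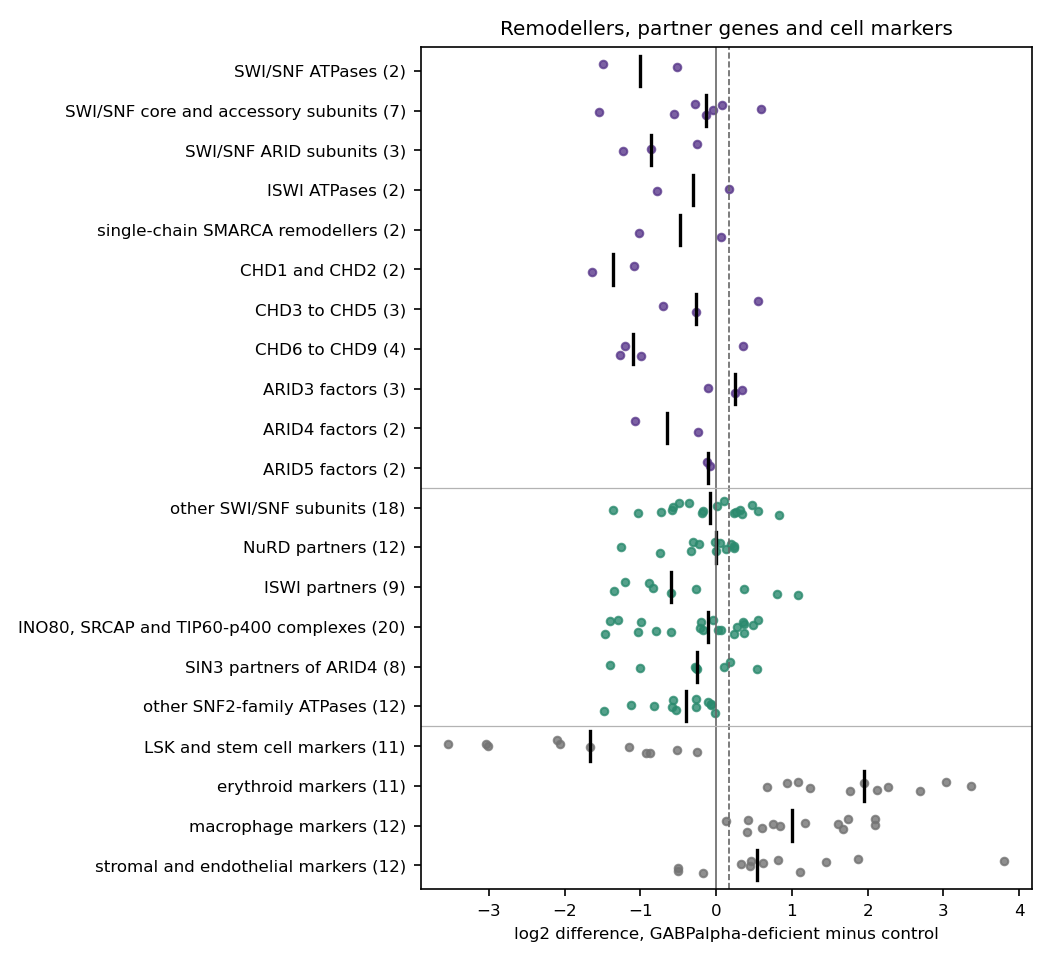
Log2 difference, arrays labelled GABPalpha-deficient minus control arrays (x axis), of each measured gene (points) in the classes of remodellers (purple), the partner lists (green) and markers of the sorted cells and of other cells (grey), with the number of genes in brackets and black bars at the medians. The dashed line is the median of all genes at 0.16, and stem cell markers lie left of 0 while erythroid markers lie right.

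The spread between arrays of a group was not the same for every member. Control replicate 1 lay above control replicate 2 for 22 of 32 members, with a median gap of 0.14, against 7930 of 19938 genes and a median gap of −0.069. Replicate 1 labelled deficient lay above replicate 2 for 11 of 32 members, with a median gap of −0.21, against 9460 of 19938 genes and a median gap of −0.019. The members' median value was 6.69 and 7.01 on the arrays labelled deficient and 7.68 and 7.26 on the control arrays. Both middle values labelled deficient were thus below both controls, and replicate 1 of each group was the more extreme.

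The members are long genes, with a median genomic span of 70.6 kb in GRCm38.p6, against 17.7 kb for all genes with a span. The 16 members above that median had a median difference of −0.93, with 13 below 0, and the 16 below it −0.12, with 11 below 0. Across the 32 members the rank correlation of span with difference was −0.46, and across 19856 genes it was −0.22. Genes share arrays and are not independent, so these are descriptions. All 3364 genes with a span above 70.6 kb had a median difference of 0.10, with 41.1% below 0, against 81.3% of the 16 long members. Arid1b, the longest at 353 kb, differed by −0.86, while Chd7 at 178 kb and Arid5b at 187 kb differed by 0.36 and −0.12. Among short members, Smarcd1 at 11.7 kb and Chd4 at 34.6 kb differed by 0.59 and −0.70. The part of gene length in the members' values was not tested.

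**Figure D5:**
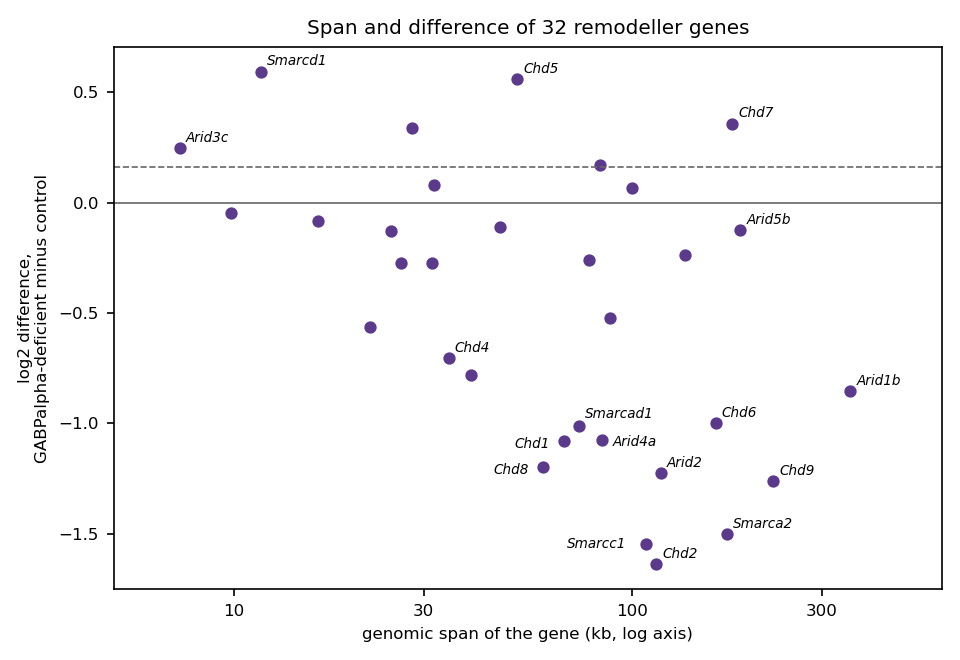
Log2 difference, arrays labelled GABPalpha-deficient minus control arrays (y axis), against genomic span in kb (x axis, log scale) for the 32 remodeller genes, with the median of all genes at 0.16 as a dashed line. The 9 members at −1 or below span 59.9 kb or more, and the long genes Chd7 and Arid5b lie above them at 0.36 and −0.12.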

How the data were processed

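Expression was measured on 4 arrays, 1 per sample. The values the authors deposited are on a log2 scale, 1 per probe set. RMA, which corrects background, quantile-normalizes and summarises probes, and Partek are named in the submitters' processing notes, without versions, and no annotation is named there. Values from 1.98 to 13.7 fitted a log2 scale, so they were used without further transformation, and all 4 columns were matched to samples. Arrays have no read depth, and their small number limits precision. RNA input is given as a range of 800 pg to 50 ng for every sample, and its part in the spread between arrays was not tested.

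Gene names came from GEO's annotation of the platform, with 21789 probe sets having 1 gene symbol, 1621 several and 12146 none, and symbols were updated by Entrez number through RefSeq's gene table. The brightest probe set over all 4 arrays stood for a gene. The fit was limma 3.58.1 in R 4.3.3 (lmFit, eBayes, genotype only, Benjamini-Hochberg over 35556 probe sets), tested on simulated data. SE is that of the moderated fit. Figures used matplotlib 3.10.9 in Python 3.11.15. Members, classes, partner and marker lists were chosen with earlier results of these data known. All members are accounted for. Values on every array are given for members with an unadjusted p under 0.05, a difference of at least 1 in size, or a place on a fixed list of 14 main subunits, and for other members where they show the spread. In each partner list the 2 genes with the smallest p are named. Alternatives were cyclic loess, median subtraction, no dim probe sets, averaged probe sets, a replicate block, an intensity trend and leaving out each array.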

Additional observations from a re-analysis of the deposited data

How the results depend on the processing

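No setting brought any probe set or any remodeller gene to an adjusted p under 0.05 in limma, and the lowest adjusted p of a member in any of the 11 fits was 0.251. Of the 32 members, 16 lay below 0 and 6 above 0 in every fit in which they were measured, and 10 changed sign in at least 1, in 14 of 314 alternative values. The count of members lower at an unadjusted p under 0.05, 10 as reported, was 5 with the replicate block and ranged from 1 without control replicate 1 to 11 without control replicate 2. The count of members higher, 1 as reported, was 0 with cyclic loess, with the intensity trend and without the dimmer 50% of probe sets, and ranged from 0 to 1 with 1 array left out, where the 1 was Smarcd1 in place of Chd5. Without the dimmer 50% of probe sets, which kept 26 members, the members' median was −0.54, against 0.072 for all genes. The partners' median, −0.20 as reported, was −0.26 with cyclic loess and −0.28 with array medians subtracted, and ranged from −0.36 to −0.094 with 1 array left out. Replicate numbers were not taken as pairs, since the gaps between replicates 1 and 2 correlated at −0.088 between the groups over all probe sets.

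Signs turned as follows when 1 array was left out. The ISWI median ranged from −0.76 to 0.14 and that of ARID5 reached 0.060, without deficient replicate 1. Smarcb1 ranged from −0.42 to 0.16, Smarcc2 from −0.59 to 0.041, Smarcd2 from −0.49 to 0.39 (0.018 without control replicate 1), Smarcd3 from −0.066 to 0.23 (−0.011 without control replicate 1), Arid1a from −0.60 to 0.076, Smarca5 from −1.70 to 0.14, Smarcal1 from −0.17 to 0.30, Arid3b from −0.35 to 0.13, Arid4b from −0.82 to 0.34 and Arid5b from −0.40 to 0.15. Cyclic loess gave −0.12 for Smarcd3 and −0.00073 for the median of all genes, and median subtraction gave −0.017 for Smarcal1. Without dim probe sets the median of the single-chain remodellers was 0.064. There Smarcad1 was left out, so that median was the value of Smarcal1 alone, the same as with all probe sets. The count of all probe sets higher at an unadjusted p, 2360 as reported, was 1341 with the replicate block, 714 and 1053 without control replicates 1 and 2, and 964 without dim probe sets. Apart from the fewer probe sets or arrays in some fits, the cause was not tested.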
